A study of Mus musculus with 8 samples.

Results

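Ptprs, which encodes the receptor tyrosine phosphatase sigma, was examined together with 9 other classical protein tyrosine phosphatase genes in mouse bone marrow-derived macrophages (BMDMs) after knockdown of the lncRNA MAARS. The 10 genes comprised the receptor-type members Ptprs, Ptprc, Ptprj, Ptpro, Ptpra, Ptpre and Ptprm and the cytoplasmic members Ptpn6, Ptpn1 and Ptpn2. They were found by symbol among the 49315 genes of the count table, and all 10 were present and passed the filter on low counts that kept 13051 genes. The set was chosen with this comparison already known, since Ptprs was selected on its small p-value among the genes higher after MAARS knockdown and the others were listed by name. The values of the 10 genes between the groups are therefore a description and carry no test.

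BMDMs are primary macrophages, here from the marrow of C57BL/6 mice cultured in medium with 10 ng/ml macrophage colony-stimulating factor, 10% FBS and 1% antibiotics. They received, by lipid transfection, gapmeRs against MAARS or negative control gapmeRs at a labelled 25 nM; a gapmeR is an antisense oligonucleotide that directs RNase H to its target. There were 4 control libraries, replicates 2, 5, 6 and 7, and 4 MAARS gapmeR libraries, replicates 9, 11, 13 and 15, from ribodepleted total RNA. The labels name no other stimulus and do not say whether libraries came from separate mice or cultures, so the spread between them may be technical. Each library held 19287279 to 20567123 counts with control gapmeR and 20839671 to 24541205 with MAARS gapmeR. MAARS itself, listed as Gm14461, had 238, 296, 240 and 249 counts in the control libraries and 163, 161, 159 and 135 in the MAARS gapmeR libraries, which was lower in 4 of 4. All 8 macrophage markers examined were present, and their summed level was 13836 to 17118 CPM (library-size-scaled counts, with TMM factors) with control and 17011 to 20241 CPM with MAARS gapmeR. Lyz2 made most of this sum, at 9402 ± 1240 and 13170 ± 1172 CPM (SD, n = 4 each). Of the 8 markers, 5 rose and 2 fell, the latter being Fcgr1, from 808.2 ± 173.7 to 189.6 ± 42.7 CPM, and Cd68, from 2162 ± 74.2 to 1710 ± 31.3 CPM (SD, n = 4 each). These are bulk libraries, in which a gene expressed by fewer cells and a gene expressed less per cell cannot be told apart.

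Classical protein tyrosine phosphatases remove phosphate from tyrosine through a cysteine held in a short loop of the catalytic domain, and so oppose tyrosine kinases. Receptor-type members carry this domain behind a membrane-spanning segment, often followed by a further phosphatase domain that is weak or inactive. In macrophages, CD45 (Ptprc) and CD148 (Ptprj) act on the Src family kinases beneath immune receptors, and SHP-1 (Ptpn6) is recruited by inhibitory receptors. Ptprs belongs to the LAR group, whose extracellular part binds heparan and chondroitin sulfate proteoglycans, and is otherwise known from axon growth and from plasmacytoid dendritic cells.

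The catalytic loop shows what the 10 genes have in common. In the transcript of each gene with the longest coding sequence in GENCODE M21 (GRCm38), the pattern of histidine, cysteine, any 5 residues and arginine occurred in every member. It was found at 2 places in Ptprs, Ptpra, Ptpre and Ptprm, and at 1 place in Ptprc, Ptprj, Ptpro, Ptpn6, Ptpn1 and Ptpn2. For 8 of the genes, the 30 coding nucleotides from the histidine codon of the first match are given here on the coding strand, with the codons of the catalytic cysteine and of the arginine in capitals.
Ptprs: cacTGCagcgcgggtgtggggCGCactggc
Ptprc: cacTGCagtgctggtgttgggCGTacaggt
Ptprj: catTGCagtgctggggttggaAGGacgggc
Ptpro: cacTGCagtgcgggtgtgggaCGGacagga
Ptpra: cacTGCagtgcaggtgtagggCGCactggc
Ptpre: cacTGTagcgcgggcgtgggtCGGactggc
Ptpn6: catTGCagcgctggcatcggcCGCacgggc
Ptpn1: cacTGCagcgccggcatcgggAGGtcaggg
These stretches lie at chr17:56417490-56417598 (minus strand) for Ptprs, chr1:138080249-138080844 (minus strand) for Ptprc, chr2:90439971-90440632 (minus strand) for Ptprj, chr6:137450018-137454606 (plus strand) for Ptpro, chr2:130540642-130541316 (plus strand) for Ptpra, chr7:135669153-135669743 (plus strand) for Ptpre, chr6:124722057-124724964 (minus strand) for Ptpn6, chr2:167974207-167974236 (plus strand) for Ptpn1; all but that of Ptpn1 are split by an intron, which the coordinates include. The cysteine is residue 1548 of 1907 in Ptprs, 842 of 1293 in Ptprc and 215 of 432 in Ptpn1. Against Ptprs, the loops of Ptprc, Ptprj, Ptpro, Ptpra and Ptpre differed at 3 to 9 bases and at 0 of the 10 encoded residues. Ptprm, the remaining receptor-type member, whose sequence is not shown, differed at 10 bases and 1 residue. Ptpn6 differed at 7 bases and 1 residue, and Ptpn1 at 9 bases and 2 residues.

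Levels between genes were compared as CPM per kilobase of exon, the union of each gene's annotated exons. In control libraries Ptpn6 was the most abundant, at 122.1 ± 5.33 CPM per kilobase (SD, n = 4), followed by Ptpn1 at 69.8 ± 4.75 and Ptprc at 30.2 ± 2.68. Ptpra, Ptprj and Ptpro came next at 25.6, 22.2 and 16.1, and Ptpn2 and Ptpre had 9.92 and 8.79. Ptprs, at 1.94 ± 0.159 CPM per kilobase (SD, n = 4), ranked ninth, and Ptprm was the scarcest at 0.507 ± 0.102. Neighbours in this order whose control libraries overlapped were Ptprc with Ptpra, Ptpra with Ptprj, and Ptpn2 with Ptpre. With MAARS gapmeR, Ptprs stood at 4.61 ± 0.251 CPM per kilobase (SD, n = 4) and was still ninth, below Ptpn2 at 7.67 ± 0.253. Divided by the longest annotated transcript instead, control levels were 148.2 for Ptpn6, 96.4 for Ptprc, 90.0 for Ptpn1 and 4.24 for Ptprs. Ptpre and Ptpn2 then had 15.6 and 11.6 in control libraries. With MAARS gapmeR, this length put Ptprs at 10.1, above Ptpn2 at 8.99. The control places of Ptprc and Ptpn1, and of Ptpre and Ptpn2, therefore depend on the length used. So does the place of Ptprs with MAARS gapmeR.

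**Figure D1:**
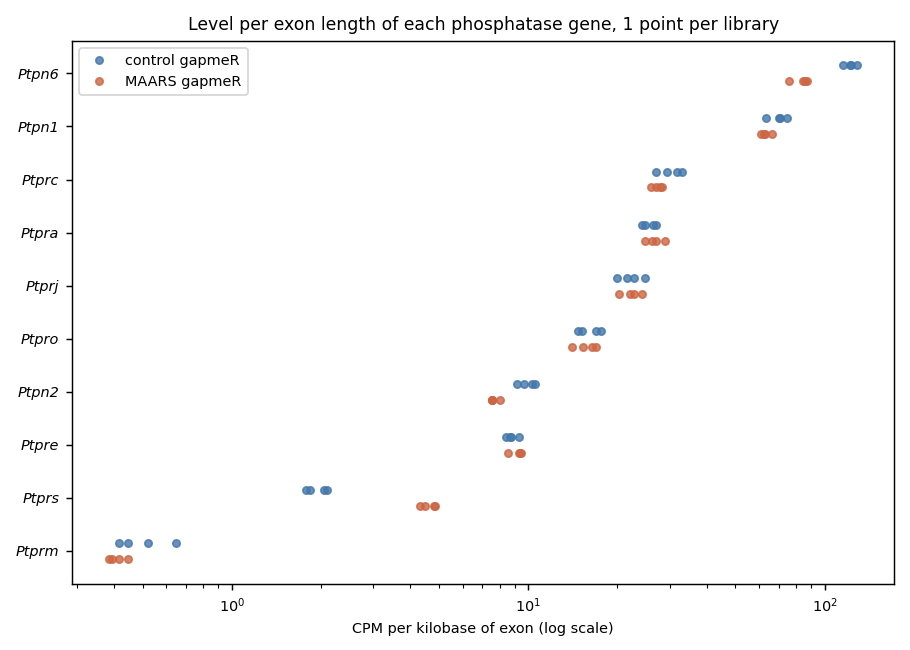
Level of each of the 10 phosphatase genes in CPM per kilobase of exon on a log axis, with 1 point per library, control gapmeR in blue and MAARS gapmeR in orange. Ptprs lies between 1.78 and 2.09 in the control libraries and between 4.31 and 4.84 in the MAARS gapmeR libraries, while most other genes overlap between groups.

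Ptprs lies on the minus strand of chromosome 17 from 56412426 to 56476483, and no exon of another counted gene overlaps its exons. It had 535, 616, 569 and 542 counts in the control libraries and 1518, 1623, 1467 and 1674 in the MAARS gapmeR libraries. Normalized, these were 27.4, 31.4, 30.8 and 26.6 CPM with control and 71.8, 64.6, 67.4 and 72.6 CPM with MAARS gapmeR. Every MAARS gapmeR library lay above every control library, and the lowest MAARS gapmeR value was above the highest control value by more than the spread within either group. The mean went from 29.0 ± 2.39 to 69.1 ± 3.76 CPM (SD, n = 4 each), 2.38-fold higher (95% interval 2.15 to 2.63). The interval takes no account of the selection of Ptprs on this comparison. Across the fits that each left out 1 library, the log2 fold change ran from 1.21 to 1.28. By this measure Ptprs ranked 142 among the 13051 genes tested.

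The ratio of Ptprs counts to those of each other member in the same library uses no scaling factor, and it restates the difference on which Ptprs was selected. Relative to Ptprc, this ratio was 0.0495 to 0.0556 in control libraries and 0.132 to 0.147 in MAARS gapmeR libraries. Relative to Ptpn6, it was 0.0780 to 0.0915 and 0.269 to 0.340. For each of the 9 other members, the lowest ratio with MAARS gapmeR exceeded the highest with control, by 1.79 times for Ptpra to 2.94 times for Ptpn6. The share of Ptprs in the summed level per kilobase of the 10 genes was 0.631% ± 0.0342 with control and 1.77% ± 0.135 with MAARS gapmeR (SD, n = 4 each). Such shares use the exon union and depend on the length used. The longest transcript put the control level of Ptprs at 4.24 rather than 1.94, and of Ptpn6 at 148.2 rather than 122.1.

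**Figure D2:**
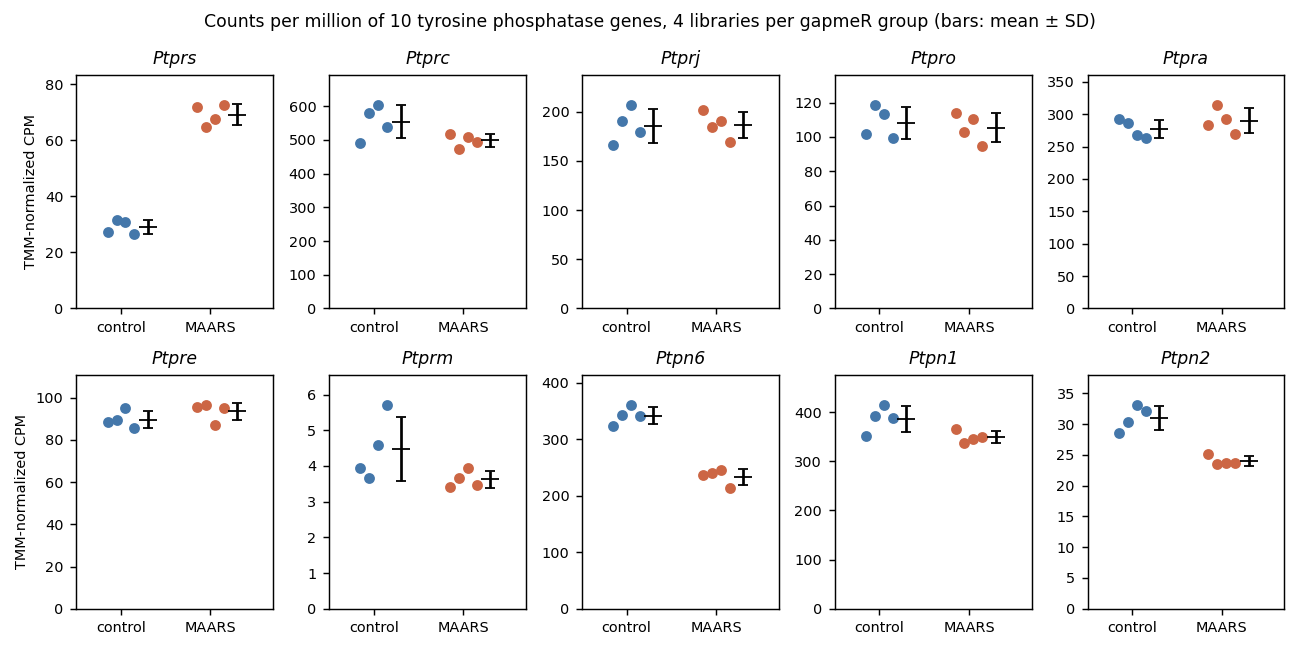
TMM-normalized CPM of the 10 phosphatase genes in the 4 control and 4 MAARS gapmeR libraries, with 1 point per library and the mean ± SD beside each group; each axis starts at 0. Ptprs is separated upward and Ptpn6 and Ptpn2 downward, and the other 7 genes overlap between the groups.

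Among the receptor-type members, Ptprc (CD45, the pan-leukocyte phosphatase that releases Src family kinases from inhibition) had 492.2, 579.9, 603.5 and 537.6 CPM with control and 517.2, 474.0, 509.7 and 493.2 CPM with MAARS gapmeR. The groups overlapped, with control replicate 2 inside the MAARS gapmeR range, and the log2 fold change was -0.15 (95% interval -0.29 to -0.01). Ptprj (CD148, which acts on Src family kinases and growth factor receptors) had 166.2, 190.0, 206.7 and 179.5 CPM with control and 201.7, 184.5, 190.5 and 169.0 CPM with MAARS gapmeR. Here the means were 185.6 ± 17.1 and 186.4 ± 13.6 CPM (SD, n = 4 each), and the interval of the fold, 0.901 to 1.12, leaves room for a difference in either direction. Ptpro, a receptor phosphatase with a single catalytic domain of the same subgroup as Ptprj, had 108.3 ± 9.23 and 105.4 ± 8.64 CPM (SD, n = 4 each). Its groups overlapped as well. For Ptprj and Ptpro the sign of the small difference was not stable. It ran from -0.04 to 0.07 and from -0.08 to 0.02 on the log2 scale over the alternatives. Ptpro was above 0 under upper-quartile scaling, without control replicate 5 and without MAARS gapmeR replicate 15.

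Ptpra and Ptpre form a subgroup with short extracellular parts, and both can activate Src by removing its inhibitory phosphate. Ptpra had 292.2, 286.6, 268.1 and 262.9 CPM with control and 283.8, 314.0, 293.1 and 269.5 CPM with MAARS gapmeR. Ptpre had 89.6 ± 3.97 and 93.5 ± 4.21 CPM (SD, n = 4 each). Both overlapped between groups, with log2 fold changes of 0.06 each and 95% intervals of -0.06 to 0.19 and -0.05 to 0.17. Ptprm, a homophilic adhesion phosphatase known from endothelial cells, was near the lower end of detection with 72 to 116 counts per control library and 72 to 92 per MAARS gapmeR library. Its values were 4.48 ± 0.902 and 3.62 ± 0.246 CPM (SD, n = 4 each), and the log2 fold change moved from -0.31 to -0.17 without control replicate 7, its highest library at 5.70 CPM. Summed over the 7 receptor-type members, the level was 105.3 ± 5.95 CPM per kilobase with control and 106.2 ± 4.01 with MAARS gapmeR (SD, n = 4 each), and the ranges overlapped.

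The cytoplasmic members lay lower after MAARS knockdown to unequal extents. Ptpn6 (SHP-1, the phosphatase that inhibitory receptors recruit) had 323.8, 342.9, 360.4 and 341.1 CPM with control and 236.6, 240.3, 245.0 and 213.1 CPM with MAARS gapmeR. Every MAARS gapmeR library lay below every control library, with a log2 fold change of -0.55 (95% interval -0.67 to -0.43). An antisense gene covers 6.96% of its exons. Ptpn2 (TC-PTP, which acts on JAK kinases) had 28.6, 30.3, 33.0 and 32.2 CPM with control and 25.2, 23.5, 23.6 and 23.6 CPM with MAARS gapmeR. The groups did not overlap here either, and the log2 fold change was -0.37 (95% interval -0.51 to -0.24). Ptpn1 (PTP1B, its closest relative, which acts on insulin and cytokine receptor signalling) overlapped between groups at 386.1 ± 26.3 and 349.6 ± 12.1 CPM (SD, n = 4 each). On the log2 scale it differed by -0.14 (95% interval -0.26 to -0.02). Summed, the 3 cytoplasmic members had 201.8 ± 10.6 CPM per kilobase with control and 154.3 ± 5.37 with MAARS gapmeR (SD, n = 4 each), a difference carried mainly by Ptpn6, whose share of the 10 genes was 39.8% ± 0.505 and 32.0% ± 1.11.

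Of the 10 members, 3 (Ptprs, Ptpn6 and Ptpn2) had an adjusted p under 0.05 in edgeR's quasi-likelihood fit, 1 higher and 2 lower, beside 45.4% of all genes tested, 21.3% higher and 24.0% lower. The same 3 had groups that did not overlap, beside 42.1% of all genes tested. Nothing is read from these counts, since the set was chosen on this comparison. Without control replicate 2 the count was 5, with Ptprc and Ptpn1 added. The median log2 fold change of the members was -0.09, and that of all genes tested was 0.01. Of all genes called, 47.0% were higher, and 60.4% with upper-quartile scaling.

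The remaining classical phosphatase genes were listed by family membership, and the same fit gives their p-values. They are the family without the members, so the choice of members on this comparison also shaped which genes remain. Of 14 further receptor-type genes, 6 passed the filter on low counts, and the other 8 had at most 11 counts in any library. Of these 6, 2 passed the test, both higher: Ptprg, a receptor with a carbonic anhydrase-like domain, rose from 1.58 ± 0.533 to 3.22 ± 0.877 CPM (SD, n = 4 each; log2 fold change 1.02, adjusted p = 0.01 from edgeR), and Ptprv rose from 1.49 ± 0.145 to 2.18 ± 0.390 CPM (adjusted p = 0.0377 from edgeR). Under 8 of the 14 alternatives Ptprv lost its call, with adjusted p reaching 0.0984, and 6 of these left out 1 library (control replicates 2, 5 or 6, or MAARS gapmeR replicates 11, 13 or 15). Of 14 further cytoplasmic genes, 12 were tested, 6 fell and 1 rose. Ptpn22, which with the kinase Csk restrains Src family kinases, fell from 50.5 ± 0.489 to 36.7 ± 1.74 CPM (SD, n = 4 each; log2 fold change -0.46, adjusted p = 2.83e-05 from edgeR). Ptpn12 (PTP-PEST, which acts on focal adhesion proteins) and Ptpn11 (SHP-2, a positive regulator of growth factor signalling) fell by 0.32 and 0.21 on the log2 scale (adjusted p = 0.000129 and 0.00205 from edgeR). Ptpn21 rose from 15.3 ± 0.854 to 19.5 ± 1.19 CPM (SD, n = 4 each; log2 fold change 0.35, adjusted p = 0.00237 from edgeR). The share called was 33.3% of the receptor-type and 58.3% of the cytoplasmic genes tested, beside 45.4% of all genes tested. The median log2 fold changes were 0.43 and -0.10, beside 0.01 over all genes tested.

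**Figure D3:**
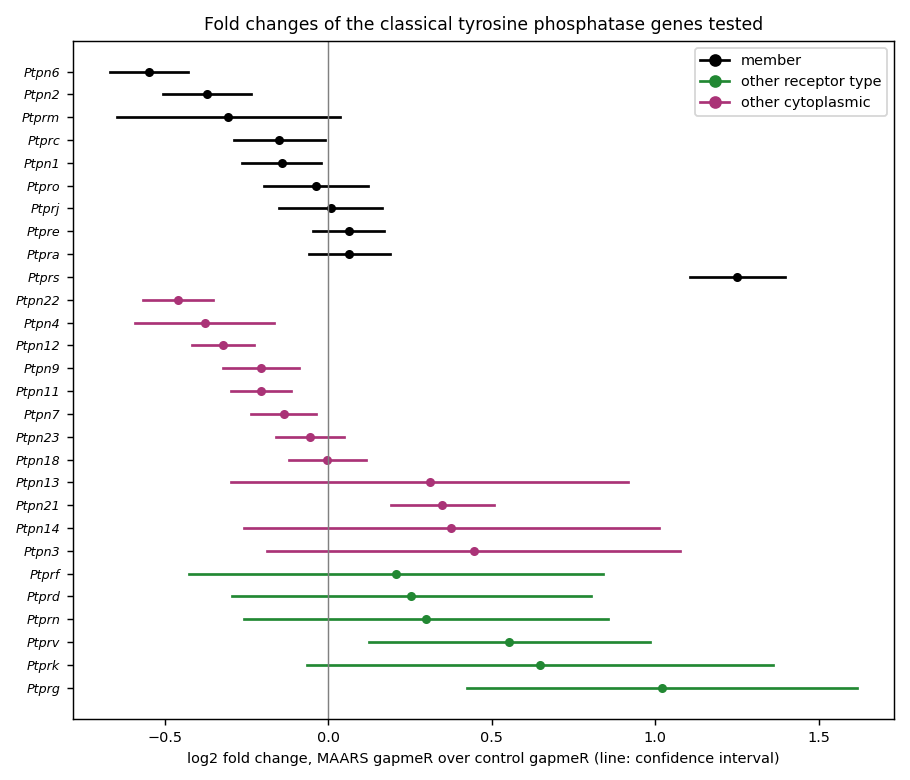
Log2 fold change of MAARS gapmeR over control gapmeR with its 95% interval for the 10 members (black), 12 other cytoplasmic genes (purple) and 6 other receptor-type genes (green) tested. Ptprs stands at 1.25 with an interval of 1.10 to 1.40, and the intervals of the 6 other receptor-type genes are wider than that of any member, of which Ptprm has the widest at -0.65 to 0.04.

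These 6 scarce receptor-type genes varied between libraries of the same group, and this was set beside fibroblast and neutrophil markers after the values had been seen. In control libraries 6 of 6 were highest in replicate 7 and 5 of 6 lowest in replicate 5. Col1a1, a collagen gene of fibroblasts, had its control extremes in the same libraries, at 213.6 CPM in replicate 5 and 484.4 CPM in replicate 7. Ptprf had 1.27 and 4.22 CPM there, and Ptprk 1.07 and 4.22 CPM. The member Ptprm also had its control extremes in these libraries, at 3.67 CPM in replicate 5 and 5.70 CPM in replicate 7. The share of all genes with this order was not counted. The summed level of 5 fibroblast markers was 235.4 to 528.7 CPM with control and 373.0 to 624.0 CPM with MAARS gapmeR. Col1a1 made most of this sum, at 335.3 ± 115.0 and 436.5 ± 105.7 CPM (SD, n = 4 each). Of the 4 markers tested, 3 lay higher with MAARS gapmeR and 1 lower, Dcn, at 2.97 ± 1.43 and 1.72 ± 0.683 CPM (SD, n = 4 each). None of them passed the test, and Lum had at most 3 counts in any library. The part of these cells in the results for Ptprg and Ptprv was not tested. The summed level of 6 neutrophil markers followed the same order in the control libraries, from 55.0 CPM in replicate 5 through 73.6 and 90.2 CPM in replicates 2 and 6 to 154.4 CPM in replicate 7, so this order was not particular to fibroblast markers. Among the control libraries, Ptprs had its lowest value in replicate 7, at 26.6 CPM, and its highest in replicate 5, at 31.4 CPM. The part of fibroblasts or neutrophils in the Ptprs values was not tested.

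**Figure D4:**
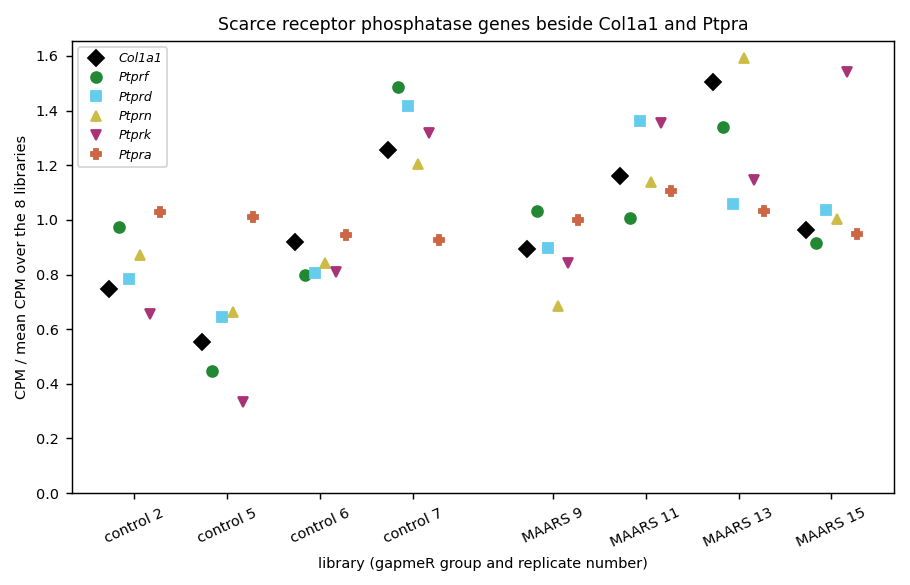
CPM of Col1a1, 4 scarce receptor-type phosphatase genes and Ptpra in each library, divided by each gene's mean over the 8 libraries. The scarce genes and Col1a1 are lowest in control replicate 5 and highest among controls in replicate 7, where Ptpra is at its lowest.

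Markers of plasmacytoid dendritic cells were examined because those cells are known to carry PTPRS. Siglech, which defines them, had 0 to 4 counts in any library, and Klk1, Pacsin1 and Ly6d had at most 3. Spib reached 4 counts, and Ccr9 reached 10 in control replicate 5. Cox6a2 was detected in every library, at 63 to 86 counts in the controls and 29 to 83 after MAARS knockdown. Its log2 fold change was -0.54, and it did not pass the test (adjusted p = 0.0982 from edgeR). The summed level of the 8 markers was 67.9 to 96.4 CPM with control and 101.3 to 117.3 CPM with MAARS gapmeR, of which Tcf4, a transcription factor also expressed elsewhere, made 80.2 ± 11.4 and 108.5 ± 7.53 CPM (SD, n = 4 each). T cell, B cell and conventional dendritic cell markers summed to at most 2.70 CPM in any library, with Cd3e, Cd3d, Cd3g, Pax5 and Flt3 at no more than 3 counts. Neutrophil markers summed to 55.0 to 154.4 CPM with control and 57.8 to 92.9 CPM with MAARS gapmeR. Of 4 endothelial markers, the sum was 16.1 to 20.5 CPM with control and 6.25 to 7.66 CPM with MAARS gapmeR, and of 5 osteoclast markers 41.7 to 53.3 CPM and 28.3 to 35.7 CPM, with Calcr at 0 in all 8 libraries. The endothelial sum was carried by Kdr, which fell from 16.3 ± 1.79 to 5.60 ± 0.221 CPM (SD, n = 4 each), while Cdh5 did not pass the test and Tek and Emcn were too scarce to be tested. The osteoclast sum was carried by Acp5, which fell from 36.3 ± 4.65 to 21.6 ± 3.10 CPM (SD, n = 4 each), while Ctsk did not pass. The part of these cell types in the members' differences was not tested.

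Ligands and partners of the LAR group were listed to place Ptprs. Of 21 proteoglycan and other ligand genes, 14 were tested, and 2 rose and 3 fell (35.7% called), with a count of 9 without control replicate 7. Sdc3, a syndecan with 1775 ± 167.8 CPM in control libraries, fell to 976.8 ± 131.7 CPM (SD, n = 4 each; log2 fold change -0.86, adjusted p = 4.06e-05 from edgeR). Agrn (agrin, a heparan sulfate proteoglycan) fell by 0.51 and Col18a1, the collagen that carries heparan sulfate, rose by 0.66 on the log2 scale (adjusted p = 0.000386 and 5.76e-05 from edgeR). Of 12 cytoplasmic partners, 10 were tested, 1 rose and 2 fell (30.0% called). Over all genes tested, 45.4% were called. Ppfia1 and Ppfibp1, which encode liprins, fell by 0.34 and 0.18, and the adaptor gene Caskin2 rose by 0.49 on the log2 scale (adjusted p = 0.00146, 0.0148 and 0.00801 from edgeR). Ppfibp1 did not pass with upper-quartile scaling (adjusted p = 0.0895).

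The kinases and receptors linked to these phosphatases moved in both directions. Of 13 Src family kinases and their regulators, 11 were tested, 3 rose and 4 fell (63.6% called). Fgr, a myeloid Src family kinase, fell by 1.79 on the log2 scale (adjusted p = 2.46e-05 from edgeR), while Matk, a Csk-related kinase that inhibits this family, rose from 3.82 ± 0.722 to 10.9 ± 1.34 CPM (SD, n = 4 each; log2 fold change 1.51, adjusted p = 1.35e-05 from edgeR). Lyn, with 290.1 ± 23.4 and 276.8 ± 23.0 CPM (SD, n = 4 each), did not pass (adjusted p = 0.458 from edgeR). Of 18 inhibitory receptors, listed because many of this kind recruit SHP-1, 17 were found and tested. Of these, 3 rose and 9 fell (70.6% called), with a median log2 fold change of -0.47. Milr1, Cd300lf and Pirb fell by 0.84, 1.74 and 0.62 on the log2 scale (adjusted p = 3.70e-06, 5.27e-06 and 2.86e-05 from edgeR), the latter pair being members of families whose reads the counting could have split. Of 17 kinases, STAT factors and adaptors acted on by classical phosphatases, 17 were tested, 5 rose and 8 fell (76.5% called). Syk, the kinase of Fc receptor signalling, rose by 0.50 and Igf1r, a receptor on which PTP1B acts, by 1.09 on the log2 scale (adjusted p = 2.17e-05 and 0.000242 from edgeR). These shares stand beside 45.4% called and a median of 0.01 over all genes tested.

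The genes most like Ptprs over the 8 libraries, by Pearson's r of log2 CPM, were Phkb (r = 0.997), Kremen1 (0.997), Maged2 (0.996), Pan2 (0.996) and Kiz (0.996). All 5 lay higher in the MAARS gapmeR libraries, with log2 fold changes of 0.41 to 0.76, each smaller than that of Ptprs. Within the 4 control libraries their r with Ptprs was 0.814 to 0.973 and within the 4 MAARS gapmeR libraries 0.647 to 0.981. These values describe 8 libraries that fall into 2 groups, and 505 of the 13050 other genes had r above 0.95.

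The sequence upstream of Ptprs is shown because it held more E-box hexamers than nearly all other promoters. RefSeq (GRCm38.p6) gives 2 start sites for Ptprs, and the gene counts do not tell which was used. The 250 bases before the distal start, chr17:56476481-56476730 on the minus strand, are shown 5′ to 3′ with each CACGTG in capitals.
Ptprs upstream: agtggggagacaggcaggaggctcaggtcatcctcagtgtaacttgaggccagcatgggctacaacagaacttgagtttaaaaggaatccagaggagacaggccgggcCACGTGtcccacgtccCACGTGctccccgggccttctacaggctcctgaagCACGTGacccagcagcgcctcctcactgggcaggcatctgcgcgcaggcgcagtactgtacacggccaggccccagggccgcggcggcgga
The palindrome CACGTG, a hexamer bound by basic helix-loop-helix factors, occurs 3 times in these bases, and 20 of 32851 promoters of this length (0.0609%) held at least 3. At least 1 was held by 6.02% of promoters, and by none of the other promoters matched to the members (Ptprc, Ptprj, Ptpre, Ptpra, Ptpro, Ptprm, Ptpn6 or Ptpn1; Ptpn2 was not matched) or by the other start of Ptprs. The core GAGGAA of the macrophage factor PU.1, on either strand, was in 23.3% of promoters. It was in at least 1 start each of Ptprs, Ptprc, Ptprj, Ptpre and Ptpra. That count is by gene, most of these genes have more than 1 start, and it cannot be set against the share by promoter. Each match describes letters only, and which factor binds there was not measured.

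The study concerns HuR, an RNA-binding protein that favours U-rich and AU-rich stretches of mRNA, so the 3′ untranslated regions of the members were searched for TTNTTT and ATTTA with overlapping matches counted. Ptprs held 30 matches to TTNTTT in 892 bases, 33.6 per kilobase, at percentile 98.8 of 11465 genes (median 4.27 per kilobase), and no ATTTA. The densest stretch, chr17:56412997-56413026 on the minus strand in the last exon, held 12 of these matches, with the matched letters in capitals.
Ptprs 3′ site: tTTCTTTTTCTTTTTTTCTTTTTTTTTTTT
It includes an unbroken run of 12 T, so many matches overlap. Ptprm and Ptprj had 14.7 and 14.5 TTNTTT matches per kilobase, Ptpn6 had 4.99, Ptpn2 had 6.61 and Ptpra had none. For ATTTA, Ptpre had 9.62 matches per kilobase (2 in 208 bases) and Ptprc 4.57 (5 in 1093 bases), against a median of 1.27 over all genes. Binding of HuR was not measured in these libraries.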

How the data were processed

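RNA-Seq of 8 BMDM libraries was used. Per the labels and the paper's methods, the authors trimmed the reads with Trimmomatic 0.36 and mapped them with STAR 2.5.2b to GRCm38, and featureCounts (Subread 1.5.2) assigned them to genes of Ensembl release 79. The authors deposited the resulting raw counts, without normalization, for 49315 genes; the strand setting and treatment of multi-mapping reads are not given in the sources used here. Groups followed the labels, and the replicate chi-square of 4.02 to 14.1 per gene gave no sign of a duplicated library.

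Counts were analysed with R 4.3.3 and edgeR 4.0.16 (filterByExpr with minimum count 10 and total 15, TMM factors, glmQLFit, glmQLFTest), with Benjamini-Hochberg adjustment over all 13051 genes tested. Intervals of 95% were taken from the F statistic and degrees of freedom of the fit. Gene models came from GENCODE M21 on GRCm38, which held 99.3% of the genes. Alternatives were RLE and upper-quartile factors, DESeq2 1.42.0, no filter, a mean count of at least 10, 1 surrogate variable (sva 3.50.0), each library left out, and the longest transcript as length. The members and lists were chosen with earlier results of these data known. Named genes were the members, the 3 with the smallest p per direction among other phosphatases called, the 3 with the smallest p per list, cell type markers, and the 5 most like Ptprs by correlation; Lyn, Ptprf, Ptprk, Ptprd and Ptprn were named, and the motifs chosen, after their values were seen. Some items that this rule selects are not reported here. The procedure was tested on simulated data.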

Additional observations from a re-analysis of the deposited data

Results flagged for a closer look

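Of 74 groups of 4 libraries examined for the members and named genes, 4 held a library whose gap to the nearest other passed Dixon's 95% critical value; chance flags about 1 in 20 groups. Among the members, Ptpre had its lowest MAARS gapmeR value in replicate 13, at 87.3 CPM against 95.0 to 96.4 in the other libraries, and Ptpn2 its highest in replicate 9, at 25.2 CPM against 23.5 to 23.6. Ptpn21 was highest in the same replicate 9, at 21.3 CPM against 18.9 to 19.0, and Caskin2 was lowest in MAARS gapmeR replicate 15, at 6.41 CPM against 8.41 to 8.63.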

How the results depend on the processing

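No paired analysis was possible because the 2 groups share no replicate number. The log2 fold changes of the 10 members moved by less than 1 SD between replicates in 140 of 140 values over 14 alternatives; Ptprs ran from 1.21 to 1.31, Ptpn6 from -0.57 to -0.49 and Ptpn2 from -0.40 to -0.31. With upper-quartile factors, 60.4% of all called genes were higher against 47.0%, and the median log2 fold change of all genes was 0.07 against 0.01. The number of members with an adjusted p under 0.05 was 3 to 5 when each library was left out and 3 or 4 under the other alternatives. The LAR ligand list had 5 genes called, 8 with upper-quartile factors, 8 with no filter, 10 with 1 surrogate variable and 4 to 9 with each library left out. Other lists and the 5919 calls over all genes stayed within 1.5 times of their counts. Without Ptprc in the sum, the share of Ptprs was 0.699% and 1.98%. Shares were not worked out with the longest transcript as length. Ptprm, Ptprg and Ptprv are limited by depth, at 17 to 116 counts per library.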
